A study of Mus musculus with 18 samples.

Results

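Collagen IV, the nidogens and the heparan sulfate proteoglycans perlecan and agrin were followed as messenger RNA in bulk RNA-Seq libraries of embryonic mouse lung. The 10 genes *Col4a1*, *Col4a2*, *Col4a3*, *Col4a4*, *Col4a5*, *Col4a6*, *Nid1*, *Nid2*, *Hspg2* and *Agrn* were taken by name out of 23418 distinct gene names in each of 3 tables. All 10 were present in every table and passed the filter on low counts in every experiment.

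In the *Vangl1/2* experiment, lungs at E12.5 (embryonic days post coitus) came from *Vangl1*-/-; *Vangl2*-/- embryos and from *Vangl1*-/- controls, so that both groups lacked *Vangl1*, which the study's methods give as a gene-trap allele, and differed in *Vangl2*. Both encode membrane proteins of planar cell polarity. The study made the *Vangl2* null allele from a floxed allele with Sox2-Cre, and its text does not state whether the controls carried this Cre. In the Dermo1Cre experiment, *Wnt5a* f/f; Dermo1Cre lungs were set against *Wnt5a* f/+; Dermo1Cre lungs at E12.5, with *Wnt5a*, the noncanonical Wnt ligand, removed by a Cre of the mesenchyme. In the Sox9Cre experiment, *Wnt5a* f/f; Sox9Cre lungs were set against *Wnt5a* f/+; Sox9Cre lungs at E13.5, with a Cre of the epithelium. Both *Wnt5a* control groups therefore carry the Cre and 1 floxed allele. Each group has 3 libraries, the number of embryos in a library is not given in the sources used here, and p-values measure only the spread between these libraries.

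The basement membrane is the thin sheet of matrix on which the lung epithelium, the endothelium and the mesothelium sit and which surrounds muscle cells and nerves. Its core is made of a laminin network and a collagen IV network. Each collagen IV molecule is a triple helix of alpha chains, mostly of the alpha1 and alpha2 chains encoded by *Col4a1* and *Col4a2*, while the alpha3, alpha4 and alpha5 chains form the helix that takes over in the mature glomerulus and alveolus, and the alpha5 and alpha6 chains combine in the membranes of several epithelia and of smooth muscle. Nidogens bind laminin and collagen IV, and perlecan (*Hspg2*) and agrin (*Agrn*) are large core proteins whose heparan sulfate chains hold water and growth factors.

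The 6 collagen IV genes lie as 3 pairs, each with the start sites side by side and transcribed away from each other. The sequences at these starts are shown because the members of each pair are compared within libraries below. They are from RefSeq promoter windows of GRCm38, the build called mm10 in the submitters' processing notes, with gene ends from GENCODE. The annotated 5′ ends of *Col4a1* (chr8:11198423-11312826, minus strand) and *Col4a2* (chr8:11312805-11449287, plus strand) overlap by 22 bases, given in capitals in the plus strand of chr8:11312801-11312830.
Col4a1 and Col4a2: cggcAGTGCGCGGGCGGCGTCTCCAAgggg
Between the starts of *Col4a4* (chr1:82448423-82586849, minus strand) and *Col4a3* (chr1:82586921-82722059, plus strand) lie 71 bases, and the whole stretch, chr1:82586850-82586920, is printed on the plus strand.
Col4a4 and Col4a3: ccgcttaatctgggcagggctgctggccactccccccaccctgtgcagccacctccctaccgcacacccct
*Col4a6* (chrX:141165403-141474076, minus strand) and *Col4a5* (chrX:141475385-141689234, plus strand) start 1308 bases apart. The 71 bases just before each start are printed in the direction of transcription, chrX:141474077-141474147 for *Col4a6* and chrX:141475314-141475384 for *Col4a5*, with a GC box in capitals.
Col4a6: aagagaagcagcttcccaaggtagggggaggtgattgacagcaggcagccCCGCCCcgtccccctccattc
Col4a5: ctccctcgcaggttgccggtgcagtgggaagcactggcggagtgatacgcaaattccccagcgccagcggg
Windows of 300 bases, from 250 before to 50 after the start, were at hand for 8 of the 10 members in 9 windows, with 2 start sites for *Agrn* and none for *Col4a3* and *Nid2*. A GC box, GGGCGG on either strand, was found in 8 of the 9 windows and in 35.6% of 32817 windows of all genes. The share of G and C was 48.3% in the *Col4a6* window, 52.7% in that of *Col4a5* and 61.3% to 83.3% in the others. The median over all windows was 52.7%, and windows of matched G and C content were not compared. The *Agrn* window at chr4:156197439-156197738 held 12 matches and that of *Hspg2* held 5, while the *Col4a4* window held 0. The letters CCAAT occurred on either strand in 4 of the 9 windows, those of *Col4a1*, *Col4a2*, *Col4a5* and *Nid1*, against 37.4% of all windows, and TATAAA occurred in 0 of 9, against 13.6%. The windows of *Col4a1* and *Col4a2* overlap, so that they share letters and are not separate counts. These matches describe the letters and name no bound factor.

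*Nid1* lies at chr13:13437551-13512269 on the plus strand, *Nid2* at chr14:19751265-19811787 on the plus strand, *Hspg2* at chr4:137468769-137570630 on the plus strand and *Agrn* at chr4:156165290-156197488 on the minus strand. Over merged exons, *Nid2* is the shortest member with 5.174 kb and *Hspg2* the longest with 14.307 kb. Of the exonic bases of *Nid2*, 437 also belong to *Rtraf* on the opposite strand, and the strand setting of the counting is not given in the sources used here. *Nid1* shares 143 exonic bases with the antisense gene *Gm48682*. For *Col4a3*, 563 exonic bases are shared with the noncoding gene *C430014B12Rik* on the opposite strand.

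Between 15945393 and 19814346 reads per library lay on genes. The values per library are normalized counts, that is, reads on a gene divided by a size factor of the library, so that 1 normalized count is close to 1 read. *Vangl2* was at 277, 406 and 334 normalized counts in the 3 *Vangl1/2* controls and at 86.5, 79.8 and 89.6 in the mutants. *Wnt5a* was at 472, 430 and 489 in the Dermo1Cre controls and at 317, 436 and 230 in the mutants, of which replicate 2 was as high as the lowest controls. In the Sox9Cre experiment *Wnt5a* was at 473, 453 and 426 in the controls and at 442, 362 and 448 in the mutants, and the groups overlapped. Markers of lung epithelium, mesenchyme and endothelium were present in all libraries, with 0 of 15, 0 of 14 and 0 of 14 genes at 0 throughout. In whole lungs, fewer cells of a type and less RNA per cell cannot be told apart.

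Control replicates 1 and 3 of the *Vangl1/2* experiment stand apart from the other 4 libraries of that experiment, including control replicate 2 of the same genotype. The members' fold changes, their counts and the medians of the gene lists are therefore given with and without these libraries. The counts of higher and lower genes within the lists come from all 6 libraries. Chain shares, summed markers and ratios are given library by library or as ranges over all 6.

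The members span a wide range of levels for their length, and the order was the same in the Dermo1Cre, Sox9Cre and *Vangl1/2* controls. Per kb of exon, *Col4a1* was highest, with 1819 normalized counts per kb as the median of the Dermo1Cre controls, followed by *Col4a2* with 1009, *Nid1* with 982, *Nid2* with 669, *Agrn* with 462 and *Hspg2* with 338. Far below them came *Col4a5* with 215, *Col4a6* with 79.9, *Col4a4* with 32.3 and *Col4a3* with 13.8 normalized counts per kb. In the Sox9Cre controls the medians per kb ran from 1856 for *Col4a1* to 11.8 for *Col4a3*. In the controls of the *Wnt5a* experiments, the ranges of neighbours in the order did not overlap except for *Col4a2* and *Nid1* of the Dermo1Cre experiment, which spanned 975 to 1052 and 893 to 990 normalized counts per kb. In the *Vangl1/2* controls the ranges of neighbours overlapped, apart from *Col4a5* over *Col4a6* and *Col4a6* over *Col4a4*, and the medians ran from 1231 for *Col4a1* to 4.77 for *Col4a3*.

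**Figure D1:**
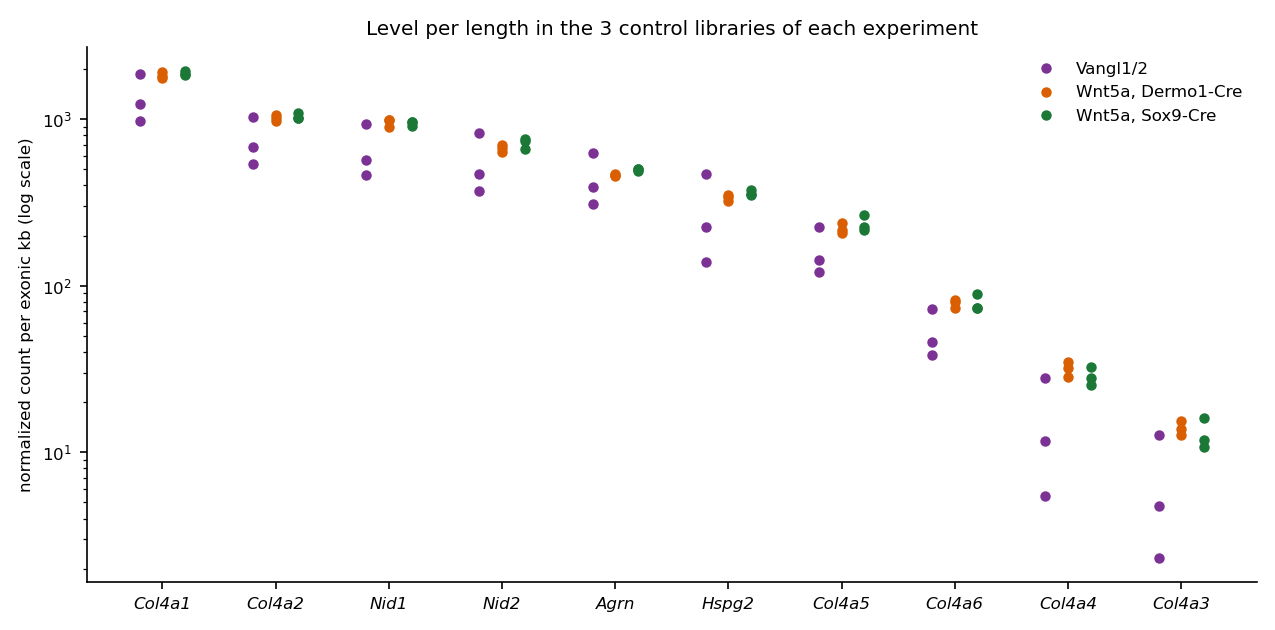
Normalized counts per kb of exon on a log axis for the 10 members, ordered by the Dermo1Cre controls, with 1 point per control library of the Vangl1/2, Dermo1Cre and Sox9Cre experiments. Col4a1 has the highest and Col4a3 the lowest level in each experiment, and the 3 Vangl1/2 controls are spread more widely than the controls of the other experiments.

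Among the collagen IV chains, the sum of *Col4a1* and *Col4a2* made up most of the level per length. It took 88.6% to 89.6% of the sum of the 6 chains in the Dermo1Cre controls and 88.2% to 89.7% in the Sox9Cre controls. *Col4a5* and *Col4a6* together took 8.91% to 10.1% and 9.01% to 10.3%. The share of *Col4a3* and *Col4a4* was 1.32% to 1.55% in the Dermo1Cre controls and 1.14% to 1.42% in the Sox9Cre controls. In both *Wnt5a* experiments the mutant range of each of these shares overlapped the control range. Exon lengths here are those of all annotated transcripts merged, so a gene with unused exons has too low a level per kb.

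Loss of *Vangl2* was examined first. All 10 members had higher normalized counts in the *Vangl1/2* mutants, with log2 fold changes between 0.51 and 1.56, and none passed the test after adjustment. Of the 5848 tested genes at least as long as the shortest member, 74.7% were higher in the mutants. The 2 rarest chains, *Col4a3* and *Col4a4*, differed most, by 2.95-fold and 2.71-fold on the log2(value + 1) scale, and perlecan came next with 1.88-fold. The differences were carried by control replicates 1 and 3, which were below the other 4 libraries for 10 of the 10 members. This held for 28.9% of the 14303 genes tested, and the opposite, both controls above the other 4 libraries, for 30.4%.

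*Col4a1*, which encodes the alpha1 chain, was at 9191, 13985 and 7281 normalized counts in the controls and at 14269, 13760 and 15185 in the mutants. Its partner *Col4a2* was at 4499, 6816 and 3556 in the controls and at 6680, 6842 and 7308 in the mutants. For both genes control replicate 2 lay within the range of the mutants, and control replicates 1 and 3 lay below it. The log2 fold change was 0.56 (SE 0.21, adjusted p = 0.233) for *Col4a1* and 0.54 (SE 0.21, adjusted p = 0.235) for *Col4a2* by limma with Benjamini-Hochberg adjustment.

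*Col4a3* was at 47.5, 126 and 23.1 normalized counts in the controls and at 162, 154 and 151 in the mutants. *Col4a4* was at 124, 296 and 57.8 in the controls and at 353, 343 and 355 in the mutants. Here the groups did not overlap, since control replicate 2 lay below the lowest mutant, and the 3 mutants differed little among themselves. The difference was 1.56 (SE 0.51, adjusted p = 0.233, limma) on the log2 scale for *Col4a3* and 1.44 (SE 0.49, adjusted p = 0.233) for *Col4a4*. Among the controls alone, replicate 3 held 18.4% of the *Col4a3* and 19.5% of the *Col4a4* of replicate 2, a wider gap than that of *Col4a1*, where it held 52.1%. As a share of the 6 chains per length, *Col4a3* and *Col4a4* together took 0.777%, 1.25% and 0.462% in the controls and 1.52%, 1.48% and 1.38% in the mutants.

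*Col4a5* was at 956, 1511 and 809 normalized counts in the controls and at 1521, 1571 and 1635 in the mutants, with all mutants above all controls. *Col4a6* was at 368, 581 and 306 in the controls and at 564, 551 and 611 in the mutants, and the groups overlapped. Their log2 fold changes were 0.58 (SE 0.21, adjusted p = 0.233, limma) and 0.51 (SE 0.22, adjusted p = 0.240).

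The nidogens followed the same order of libraries. *Nid1* was at 3947, 6499 and 3190 normalized counts in the controls and at 6293, 6536 and 6476 in the mutants. *Nid2* was at 2420, 4242 and 1918 in the controls and at 3780, 4719 and 3876 in the mutants. In both cases control replicate 2 lay among the mutants. The log2 fold changes were 0.57 (SE 0.23, adjusted p = 0.235, limma) for *Nid1* and 0.60 (SE 0.26, adjusted p = 0.243) for *Nid2*.

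Of the proteoglycans, *Hspg2* was at 3241, 6686 and 1974 normalized counts in the controls and at 5996, 7071 and 6724 in the mutants. *Agrn*, whose product also clusters acetylcholine receptors at the neuromuscular junction, was at 3636, 5801 and 2856 in the controls and at 6196, 5753 and 6037 in the mutants. The groups overlapped for both, again through control replicate 2. *Hspg2* differed by 0.91 (SE 0.37, adjusted p = 0.236, limma) and *Agrn* by 0.61 (SE 0.23, adjusted p = 0.233) on the log2 scale.

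**Figure D2:**
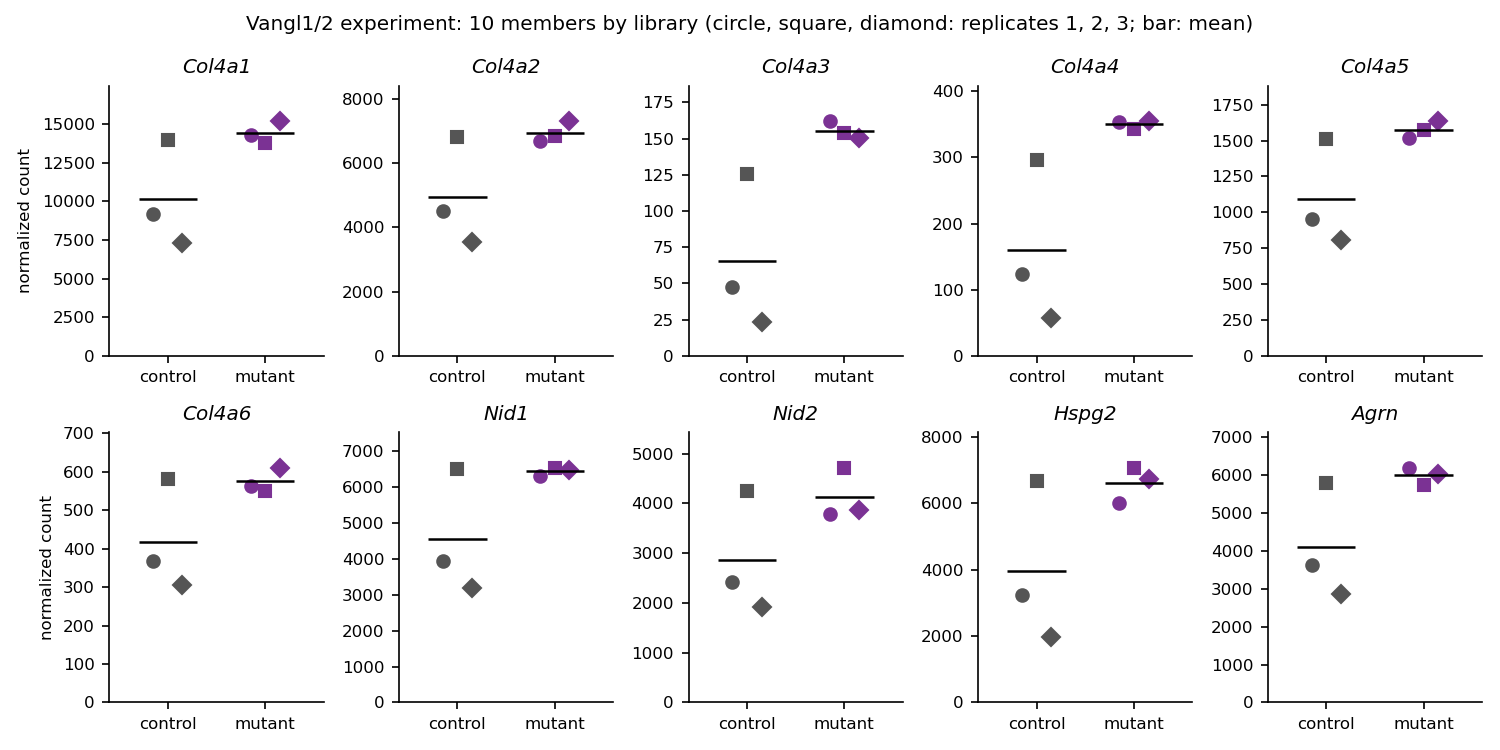
Normalized counts of the 10 members in the 6 libraries of the Vangl1/2 experiment, on linear axes from 0, with circles, squares and diamonds for replicates 1, 2 and 3 and a bar for the mean of each group. Control replicates 1 and 3 lie below the other 4 libraries in all 10 panels, and control replicate 2 lies below the lowest mutant for Col4a3, Col4a4 and Col4a5.

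By limma, 0 of the 10 members passed at an adjusted p under 0.05, where 1 gene did among all 14303 tested (0.00699%). At an unadjusted p under 0.05, 10 of 10 members were higher in the mutants, against 12.0% of all genes, and 0 of 10 lower, against 8.56%. All mutants lay above all controls for 3 of 10 members, against 13.6% of all genes, and below them for 0, against 8.68%. The median log2 fold change was 0.59 over the members and -0.01 over all genes. edgeR's quasi-likelihood test on the recovered reads also gave 0 of 10 after adjustment, and 3 of 10 under 0.05 before it. DESeq2 gave 0 among the 7 members for which it returned an adjusted p, with 8 of 10 under 0.05 before adjustment.

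The outcome changed with the libraries counted. Without control replicate 2, the differences were 0.77 to 2.19 on the log2 scale, and 10 of 10 members passed (adjusted p = 9.58e-05 to 0.000428, limma), as did 21.7% of all genes in the same direction. This fit set only control replicates 1 and 3, which stand apart, against the mutants. In it 43.6% of the 14162 genes tested passed in either direction. Without control replicates 1 and 3, which leaves 1 control, the differences were -0.05 to 0.30, and 0 of 10 passed (adjusted p = 0.969 to 0.999). In this second fit the single control was assumed to vary like the mutants. When the spread was estimated over all 18 libraries in 1 fit, the log2 fold changes stayed as they were and 10 of 10 members passed (adjusted p = 0.0222 to 0.0328), against 12.0% of all genes higher in the mutants. That fit assumed 1 common spread per gene for all groups, although the *Vangl1/2* controls varied more. The control SD of *Col4a1* was 3454 normalized counts in *Vangl1/2*, 554 in Dermo1Cre and 403 in Sox9Cre. Without control replicate 3 the median log2 fold change was 0.37. Leaving out any 1 library other than control replicate 2 left 0 of 10 members past the threshold.

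Gene length moved with the same libraries. With each doubling of exonic length, the log2 deviation of a gene from the mean of the 6 libraries changed by -0.15 in control replicate 1 and -0.17 in control replicate 3, and by 0.05 to 0.12 in the other 4. All members are long, from 5.174 kb upward. Of the 5848 tested genes with at least that length, 26.3% were higher in the mutants at an unadjusted p under 0.05, 54.1% had control replicates 1 and 3 below the other 4 libraries, and the median log2 fold change was 0.19. With the length trend removed from every library, the members were still higher by 0.31 to 1.29, with a median of 0.42, and 8 of 10 were under 0.05 before adjustment, against 6.36% of all genes higher and 6.16% lower. The remaining 2 were *Col4a6* with 0.31 and *Hspg2* with 0.52, and no member passed after adjustment (adjusted p = 0.394 to 0.402).

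**Figure D3:**
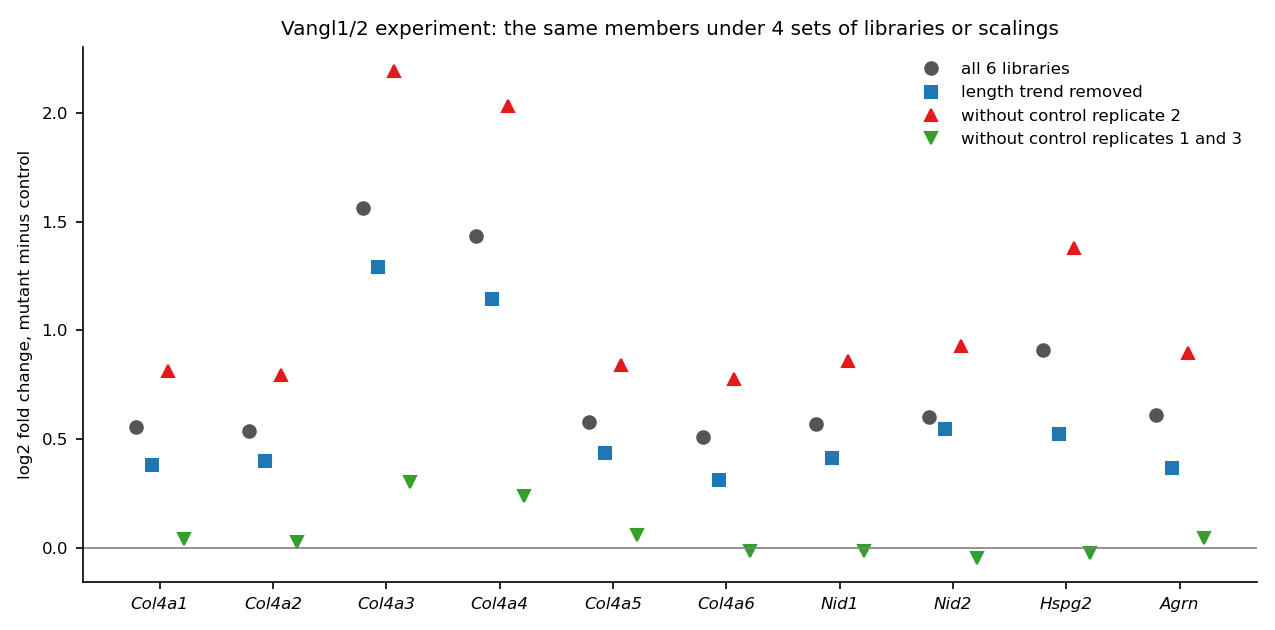
Log2 fold change of each member, mutant minus control, in the Vangl1/2 experiment with all 6 libraries, with the trend on gene length removed, without control replicate 2, and without control replicates 1 and 3. The triangles without control replicate 2 run from 0.77 to 2.19, and those without control replicates 1 and 3 lie between -0.05 and 0.30.

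The summed markers of cell types that make or touch basement membranes overlapped between the *Vangl1/2* groups. The summed level of 14 endothelial markers was 17129 to 19918 normalized counts in the controls and 18563 to 20017 in the mutants, with 2 markers higher and 1 lower at an unadjusted p under 0.05. The share of all genes was 12.0% higher and 8.56% lower by this criterion. For 12 pericyte and smooth muscle markers the sums were 14503 to 19259 and 14531 to 17823, with 2 higher and 4 lower. The 15 epithelial markers summed to 24881 to 29585 and 25218 to 29154, with 0 higher and 0 lower. Of the 6 tested mesothelial markers 3 were higher and 0 lower by the same criterion, and 4 were higher with the length trend removed. Their median log2 fold change was 0.48. It was 0.49 without control replicate 2 and 0.22 with control replicate 2 as the lone control, given with no test. The sums, over 7 mesothelial markers with the untested one included, were 4766 to 6561 in the controls and 5872 to 9673 in the mutants. The sum of 14 mesenchymal markers was 83396, 139593 and 65409 in the controls and ranged from 102362 to 129952 in the mutants, so that control replicates 1 and 3 lay below the other 4 libraries, with 3 higher and 2 lower. Median log2 fold changes of the endothelial, pericyte and smooth muscle, epithelial and mesenchymal markers were 0.005, 0.07, -0.19 and 0.12. Without control replicate 2 they were 0.05, 0.16, -0.32 and 0.08, given with no test. With control replicate 2 as the lone control they were -0.03, -0.34, 0.09 and -0.22. None of these lists held a gene at 0 in all 6 libraries, and their part in the members' values was not tested.

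The genes that make, modify, bind and degrade the basement membrane were counted in the same experiment from lists chosen with earlier results of these data known. No gene of the 6 lists passed after adjustment (limma, smallest adjusted p = 0.233). Of 28 genes that fold, modify, export and crosslink collagen IV, 3 were higher and 1 lower at an unadjusted p under 0.05, with a median log2 fold change of 0.05 against -0.01 over all genes. The share of all genes was 12.0% higher and 8.56% lower, and of the genes at least as long as the shortest member 26.3% were higher. The lowest p belonged to *Creb3l2*, a transcription factor of the secretory pathway, with 1121 ± 421 normalized counts in the controls and 1798 ± 142 in the mutants (SD, n = 3 each), and to *Mia3*, which encodes the collagen export receptor TANGO1, with 2051 ± 441 and 2645 ± 65. Of 22 tested genes of heparan sulfate synthesis and editing, 7 were higher and 0 lower (median 0.21). *Ndst1*, an N-deacetylase and N-sulfotransferase, was at 2646 ± 690 in the controls and 3871 ± 96 in the mutants (SD, n = 3 each). Control replicate 2 was at 1605 for *Creb3l2*, 2559 for *Mia3* and 3431 for *Ndst1*. The lowest mutants were at 1711, 2570 and 3778, and control replicates 1 and 3 lay below control replicate 2 for each gene.

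Laminin chains had a median log2 fold change of 0.61, the closest of the lists to the members' 0.59, with 7 of 11 higher and 0 lower at an unadjusted p under 0.05. Of all genes 12.0% were higher and 8.56% lower, and of those at least as long as the shortest member 26.3% were higher. *Lama2* was at 363 ± 190 normalized counts in the controls and 664 ± 61 in the mutants, and *Lama1* at 497 ± 167 and 781 ± 55 (SD, n = 3 each). Of 20 tested basement membrane receptors, 11 were higher and 0 lower (median 0.38), led by *Itga3*, with 1464 ± 378 and 2151 ± 218, and *Itga2*, a subunit of a collagen receptor, with 237 ± 79 and 355 ± 13. Of 23 other components, 7 were higher and 1 lower (median 0.19). The lower one was *Tinagl1*, a matrix glycoprotein, with 350 ± 9 in the controls and 275 ± 16 in the mutants. Among the higher ones was *Frem2*, a protein of the epithelial membrane, with 3439 ± 2109 and 6844 ± 214. Control replicate 2 was at 580 for *Lama2*, 684 for *Lama1*, 1855 for *Itga3*, 329 for *Itga2* and 5813 for *Frem2*. The lowest mutants were at 597, 742, 1961, 346 and 6597, and control replicates 1 and 3 lay below control replicate 2 for each of these genes. For *Tinagl1* control replicate 2 was at 351 and the highest mutant at 289. Of 18 tested proteases and inhibitors, 2 were higher and 1 lower (median 0.19). With the length trend removed, the counts under 0.05 before adjustment were 2 higher and 0 lower for synthesis, 3 and 0 for heparan sulfate, 6 and 0 for laminins, 4 and 0 for receptors, 5 and 2 for other components and 3 and 2 for turnover. Of all genes 6.36% were then higher and 6.16% lower. The medians of the 6 lists were then 0.09, 0.10, 0.34, 0.18, 0.06 and 0.21, in the same order. The lists' medians also depended on the controls. Without control replicate 2 the median differences, given with no test, were 0.16, 0.23, 0.83, 0.56, 0.35 and 0.32, and with control replicate 2 as the lone control they were -0.11, 0.07, 0.11, 0.04, -0.11 and -0.11, with 0.88 and 0.03 for the members.

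Removal of *Wnt5a* from the mesenchyme was examined next. In the Dermo1Cre experiment the members stayed close to their control levels, with log2 fold changes from -0.09 for *Col4a6* to 0.15 for *Col4a4*, 4 above and 6 below 0. The controls of this experiment were tight, so that the 95% intervals of the log2 differences of the 8 members other than *Col4a3* and *Col4a4* lay between -0.26 and 0.16. For the 2 rare chains the intervals reached from -0.21 to 0.46.

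*Col4a1* was at 14318, 13235 and 13576 normalized counts in the controls and at 13554, 13009 and 13733 in the mutants, and the groups overlapped. *Col4a2* was at 6960, 6454 and 6679 in the controls and at 6330, 6547 and 6707 in the mutants, with the same overlap. *Col4a3* was at 126, 155 and 138 in the controls and at 183, 127 and 149 in the mutants. Mutant replicate 1 was the highest and mutant replicate 2 close to the lowest library for this chain.

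*Col4a4* repeated that order among the mutants, with 444, 304 and 387 normalized counts against 371, 342 and 299 in the controls. *Col4a5* and *Col4a6* spanned 1389 to 1605 and 588 to 655 in the controls and 1350 to 1601 and 550 to 645 in the mutants. *Nid1* was at 6874, 6203 and 6819 in the controls and at 6409, 6188 and 6381 in the mutants, which gave the lowest p of the members in this experiment, at a log2 fold change of -0.07 (SE 0.05, adjusted p = 0.656, limma). The *Nid2* values were 3295 to 3599 in the controls and 3219 to 3803 in the mutants.

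For *Hspg2* the controls spanned 4622 to 5012 and the mutants 4579 to 4992 normalized counts. *Agrn* was at 4290, 4338 and 4236 in the controls and at 4349, 4378 and 4376 in the mutants. This was the 1 member of 10 with all mutants above all controls, as for 7.65% of all genes, against 7.92% with all mutants below, by a log2 fold change of 0.03 (SE 0.03, adjusted p = 0.819, limma), and with the length trend removed the groups overlapped and the value was -0.04. By limma, 0 of 10 members passed after adjustment, against 0.0140% of 14277 genes, and 0 of 10 were under 0.05 before it, against 5.42% of genes higher and 4.76% lower. edgeR and DESeq2 on the recovered reads gave 0 of 10 before and after adjustment.

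Of the marker lists, those of the epithelium and of neurons and glia had sums that did not overlap between the groups of this experiment, as had the liver markers, at 143 to 321 and 70.5 to 141 normalized counts. The sum of 15 epithelial markers was 25129 to 26665 normalized counts in the controls and 23899 to 24237 in the mutants, with 7 markers lower and 0 higher at an unadjusted p under 0.05. The sum of 13 neuron and glia markers was 1285 to 1694 in the controls and 1982 to 3676 in the mutants, with 10 higher and 0 lower. By the same criterion 5.42% of all genes were higher and 4.76% lower. Of 12 pericyte and smooth muscle markers 6 were lower and 0 higher, also with the length trend removed, with a median log2 fold change of -0.34 and sums of 18040 to 22668 and 13899 to 18782 that overlapped. The 14 mesenchymal markers had 4 lower and 0 higher, with sums of 109208 to 127524 and 99974 to 111798. With the length trend removed, 4 epithelial and 4 mesenchymal markers were lower and 10 neuron and glia markers higher. No gene of these 4 lists was at 0 in all libraries, and the part of these cells in the members' values was not tested.

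Around the members, 0 genes of the 6 lists passed after adjustment in the Dermo1Cre experiment (limma). The components list had the smallest p values, with 2 of 23 genes higher and 3 lower before adjustment and a median of -0.10. Of all genes 5.42% were higher and 4.76% lower. *Col18a1*, a basement membrane collagen that carries heparan sulfate and releases endostatin, was at 6109 ± 29 normalized counts in the controls and 5223 ± 337 in the mutants (SD, n = 3 each), a log2 fold change of -0.23 (SE 0.05, adjusted p = 0.194). *Smoc2*, a calcium-binding matricellular protein, was at 1171 ± 142 and 917 ± 22, with -0.34 (SE 0.08, adjusted p = 0.204). In the synthesis list, 1 was higher and 3 lower of 28. These included *Creb3l1*, with 1478 ± 150 and 1265 ± 17, and *Pxdn*, the peroxidasin that forms the sulfilimine crosslinks of collagen IV, with 7141 ± 216 and 7646 ± 110. Among heparan sulfate genes 1 of 22 was lower, *Hs6st1*, a 6-O-sulfotransferase, with 1321 ± 100 and 1130 ± 32. Laminins had 2 of 11 higher, *Lama3* with 1237 ± 33 and 1462 ± 163 and *Lama2* with 632 ± 10 and 737 ± 98. Receptors had 0 of 20 under 0.05 in either direction, and turnover genes had 1 of 18 higher, *Hpse2*, with 213 ± 27 and 262 ± 12. The log2 fold change also rose with exonic length in this experiment (Spearman's r of 0.24). With the length trend removed, 0 components were higher and 5 lower before adjustment, and 0 synthesis genes higher and 3 lower. Heparan sulfate genes had 0 higher and 2 lower, turnover genes 1 and 1, and laminins and receptors 0 and 0. *Pxdn* was then at 0.03, and the groups of *Pxdn*, *Lama3* and *Hpse2* overlapped.

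Removal of *Wnt5a* with the epithelial Cre was examined at E13.5. In the Sox9Cre experiment 9 of 10 members had lower values in the mutants and 1 higher, with log2 fold changes from -0.22 to 0.04 and none past the threshold after adjustment. The nidogens stood at the lower end. *Nid2* was at 3923, 3440 and 3818 normalized counts in the controls and at 3110, 3417 and 3086 in the mutants. All mutants were below all controls, by a margin of 3440 to 3417 at the closest pair, and the log2 fold change was -0.22 (SE 0.07, 95% interval -0.37 to -0.07, adjusted p = 0.9999, limma). With the length trend removed it was -0.18 and the groups overlapped.

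*Nid1* was at 6682, 6280 and 6644 in the controls and at 5726, 6168 and 6309 in the mutants, and mutant replicate 3 was above the lowest control. Its log2 fold change was -0.11 (SE 0.05, 95% interval -0.23 to 0.02, adjusted p = 0.9999, limma). Over the alternatives, the log2 fold change of *Nid2* was between -0.27 and -0.18, with an adjusted p from 0.383 to 0.99995. *Rtraf*, whose exons overlap those of *Nid2*, was at 2965, 2774 and 2680 in the controls and at 3219, 2716 and 3226 in the mutants, so that it was highest in the same 2 mutants in which *Nid2* was lowest, and the part of shared reads was not tested.

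The collagen IV chains of the Sox9Cre experiment overlapped between the groups. *Col4a1* was at 13652, 13854 and 14429 normalized counts in the controls and at 13421, 13228 and 13678 in the mutants, and only mutant replicate 3 reached the lowest control. *Col4a2* was at 6750, 6712 and 7242 in the controls and at 6857, 6716 and 6883 in the mutants. *Col4a5* was at 1509, 1441 and 1790 in the controls and at 1358, 1396 and 1513 in the mutants, with a log2 fold change of -0.15 (SE 0.09, adjusted p = 0.9999, limma).

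*Col4a6* was at 586, 588 and 707 in the controls and at 580, 627 and 607 in the mutants. The rare chains spanned 107 to 161 for *Col4a3* and 271 to 347 for *Col4a4* in the controls, and 98.6 to 162 and 244 to 333 in the mutants. *Hspg2* spanned 5023 to 5371 and 4774 to 5397, and *Agrn* spanned 4535 to 4633 and 4508 to 4856 normalized counts. For *Agrn* 2 of the mutants were above the highest control and 1 was below the lowest.

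In this experiment limma passed 0 of 10 members and 0 of 14293 genes (0%) after adjustment. Before adjustment 1 of 10 members, *Nid2*, was lower, against 2.81% of all genes, and 0 were higher, against 1.08%. Groups that did not overlap, with the mutants lower, were found for 1 of 10 members and for 4.36% of all genes, and with the mutants higher for 0 of 10 and 4.42%. edgeR and DESeq2 on the recovered reads each gave 1 of 10 lower before adjustment and 0 after it. The 95% intervals of the log2 differences of the 8 members other than *Col4a3* and *Col4a4* lay between -0.37 and 0.15, and those of the 2 rare chains between -0.56 and 0.43.

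**Figure D4:**
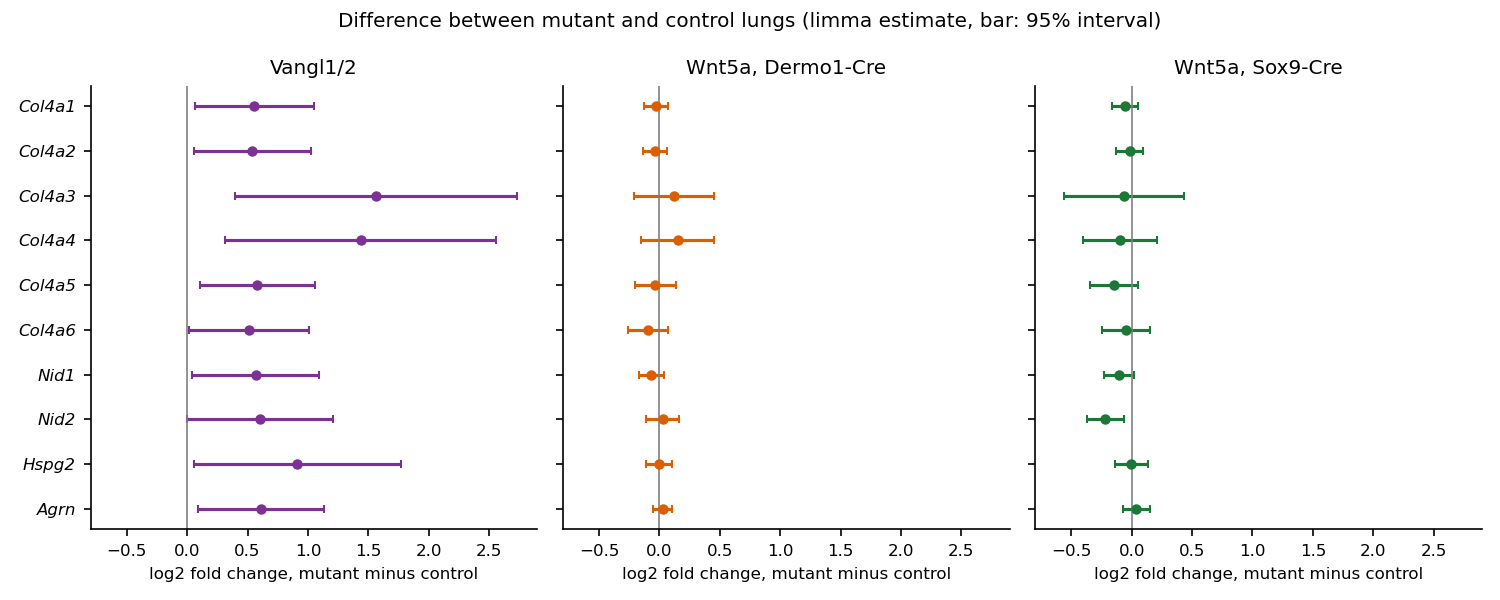
Log2 fold change, mutant minus control, of the 10 members in the Vangl1/2, Dermo1Cre and Sox9Cre experiments, as limma estimates with 95% intervals. The Vangl1/2 estimates lie between 0.51 and 1.56 with wide intervals, those of Dermo1Cre between -0.09 and 0.15 and those of Sox9Cre between -0.22 and 0.04.

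The summed endothelial markers did not overlap between the Sox9Cre groups. The 14 genes summed to 19391 to 19789 normalized counts in the controls and 18929 to 19027 in the mutants, with 1 lower and 0 higher at an unadjusted p under 0.05, a median log2 fold change of -0.05 and none at 0 throughout. With the length trend removed, 0 were lower and the median was -0.01. Without that removal, 2.81% of all genes were lower and 1.08% higher at an unadjusted p under 0.05. Mesothelial markers had 4 of 7 lower and 0 higher, with sums of 5146 to 6005 and 4248 to 5175, and cardiomyocyte markers had 9 of 12 lower, with sums of 5717 to 19803 and 1101 to 6254, and none of either list was at 0 in all libraries. Their part in the values of *Nid1* and *Nid2* was not tested.

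Among the related genes of the Sox9Cre experiment, 0 passed after adjustment (limma). Of 23 other components 6 were lower and 0 higher before adjustment (median -0.10), including *Smoc2* with 1379 ± 119 normalized counts in the controls and 1109 ± 88 in the mutants, and *Ntn1*, which encodes the laminin-like guidance protein netrin-1, with 587 ± 30 and 483 ± 32 (SD, n = 3 each). Of 22 heparan sulfate genes 3 were lower, among them both extracellular 6-O-endosulfatases, *Sulf1* with 4044 ± 691 and 2984 ± 177 and *Sulf2* with 3083 ± 165 and 2748 ± 124. Of 18 turnover genes 3 were lower. *Timp3*, an inhibitor of metalloproteinases that is bound to the matrix, was at 2101 ± 246 in the controls and 1550 ± 128 in the mutants, and *Adamts5*, a protease of proteoglycans, was at 528 ± 107 and 393 ± 36. Of 28 synthesis genes 1 was lower, *Creb3l1*, with 1506 ± 126 and 1333 ± 83. Of 20 receptors 1 was higher, *Ptprs*, a receptor phosphatase that binds heparan sulfate, with 5372 ± 81 and 5790 ± 38. Of 11 laminin chains 0 were under 0.05 in either direction. The share of all genes was 1.08% higher and 2.81% lower. With the length trend removed, 0 synthesis genes were higher and 0 lower before adjustment, and heparan sulfate genes had 0 higher and 2 lower. Components had 1 and 6, turnover genes 1 and 2, receptors 1 and 0 and laminins 0 and 0. The groups of *Sulf2*, *Creb3l1* and *Ptprs* then overlapped.

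Within each library, 5 ratios of partner genes were compared, each taken as normalized count + 1 over normalized count + 1. *Col4a2* to *Col4a1* was the steadiest. It was 0.490, 0.487 and 0.489 in the *Vangl1/2* controls, in which the counts of each gene differed by up to 1.92-fold, and 0.468, 0.497 and 0.481 in the mutants. In the Dermo1Cre libraries this ratio was 0.489 ± 0.003 and 0.486 ± 0.018 in controls and mutants, and in the Sox9Cre libraries 0.494 ± 0.009 and 0.507 ± 0.004 (SD, n = 3 each). The Sox9Cre mutants, from 0.503 to 0.511, lay above the controls, from 0.484 to 0.502 (exact two-sided permutation p = 0.1, the smallest that 3 against 3 can give).

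*Col4a4* to *Col4a3* was 2.58, 2.34 and 2.44 in the *Vangl1/2* controls and 2.17, 2.22 and 2.34 in the mutants, with 2.34487 and 2.34402 for the closest pair. *Col4a6* to *Col4a5* was 0.385, 0.385 and 0.379 in those controls and 0.371, 0.351 and 0.374 in the mutants. In both pairs all mutants lay below all controls, by -0.13 and -0.07 on the log2 scale (exact permutation p = 0.1 each, adjusted p = 0.5 over 15 ratios). With a pseudocount of 5 the *Col4a4* to *Col4a3* difference was -0.07 (exact permutation p = 0.3) and the groups were no longer apart. Both pairs overlapped between the groups in the *Wnt5a* experiments. *Col4a6* to *Col4a5* was 0.424 ± 0.016 and 0.407 ± 0.014 in the Dermo1Cre and 0.398 ± 0.010 and 0.426 ± 0.024 in the Sox9Cre controls and mutants (SD, n = 3 each).

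*Nid2* to *Nid1* was 0.570 ± 0.020 in the Sox9Cre controls and 0.529 ± 0.035 in the mutants (SD, n = 3 each, exact permutation p = 0.2), and the groups overlapped. In the *Vangl1/2* experiment it was 0.613, 0.653 and 0.601 in the controls and 0.601, 0.722 and 0.599 in the mutants. *Agrn* to *Hspg2* was 1.12, 0.868 and 1.45 in the *Vangl1/2* controls and 1.03, 0.814 and 0.898 in the mutants, so that controls 1 and 3 had the highest ratios. This is a pair of unequal length, with 9.285 kb for *Agrn* and 14.307 kb for *Hspg2*. In the *Wnt5a* experiments the ratio of the proteoglycans lay between 0.856 and 1.01. Over the 15 ratios the adjusted p was 0.5 or higher in every case, and no ratio can pass with this exact test.

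**Figure D5:**
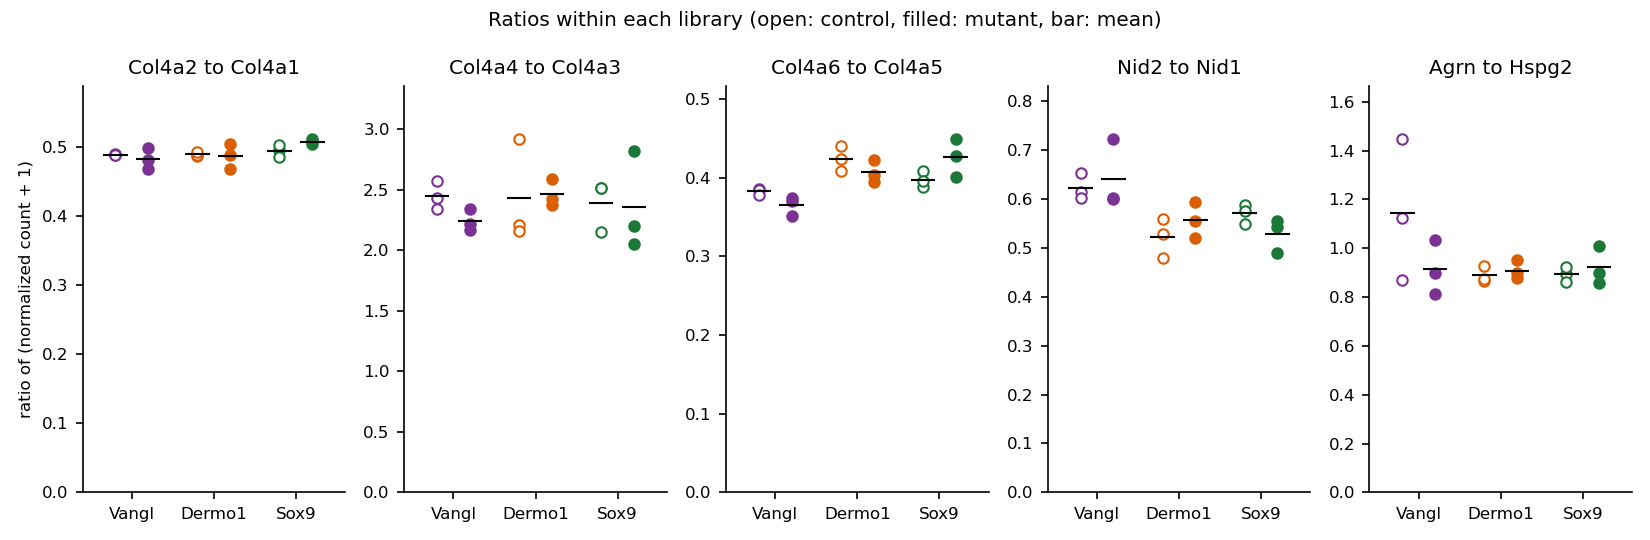
Ratios of normalized counts, each + 1, of 5 gene pairs within each library, with open points for controls, filled points for mutants and a bar for the mean, on linear axes from 0. Col4a2 to Col4a1 stays between 0.467 and 0.511 in all 18 libraries, and Agrn to Hspg2 is most spread in the Vangl1/2 controls, from 0.868 to 1.45.

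Across libraries, the members varied together, as deviations from the mean of each table on the log2 scale. Pearson's r between *Col4a1* and *Col4a2* was 0.99 over 18 libraries and 0.75 over the 12 *Wnt5a* libraries. It was 0.98 and 0.76 for *Col4a3* and *Col4a4*, 0.97 and 0.84 for *Col4a5* and *Col4a6*, and 0.95 and 0.56 for *Nid1* and *Nid2*. *Hspg2* and *Agrn* had 0.97 over 18 libraries and -0.04 over 12. The libraries share the spread of the *Vangl1/2* controls and the trend on gene length, so that these values describe the libraries and carry no p.

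The 5 other genes most like the mean of *Col4a1* and *Col4a2* over 18 libraries, of 13980 compared, were *Mllt6*, *Ttc28*, *Igf2r*, *Lamc1* and *Setd1b*, with r of 0.98 each. *Lamc1* encodes the gamma1 chain shared by most laminins, and *Igf2r* the receptor that carries mannose 6-phosphate proteins to lysosomes. These 5 genes are 7.451 to 12.315 kb long. Over the 12 *Wnt5a* libraries their r was 0.30 to 0.61, against 0.63 for *Nid1*, 0.13 for *Nid2*, 0.07 for *Hspg2* and -0.06 for *Agrn*.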

How the data were processed

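Per the labels, the submitters' processing notes name Trim Galore, HISAT2, featureCounts and DESeq2 with mm10, while versions, annotation and strand setting are not given in the sources used here. The deposited value of a gene in a library is a normalized signal, the authors' count divided by the size factor of the library, and 100% of them were whole multiples of 1 step per library within a tolerance of 0.01 reads. The deposited columns of means over the libraries, log2 fold changes and p-values were not used.

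After a pseudocount of 1, log2 values of genes reaching 10 normalized counts in 3 or more of 6 libraries were tested with limma (3.58.1, R 4.3.3) within each table, with Benjamini-Hochberg adjustment over all genes tested. The recovered reads were tested with edgeR (4.0.16) and DESeq2 (1.42.0) as alternatives, since the deposited unit is not counts. Ratios were taken with the same pseudocount and compared by exact two-sided permutation. Lengths came from GENCODE exons, merged per gene, and covered 99.1% to 99.2% of the tested genes. To remove the length trend, a loess curve (span 0.5) of the log2 deviation from the table mean on log2 length was subtracted in each library. Other alternatives were TMM scaling, no filter, pseudocounts of 0.5 and 5, a replicate block, all 18 libraries in 1 fit, and leaving out libraries.

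All 10 members were named, along with *Vangl2* and *Wnt5a*, at most 2 genes with the smallest p per list and experiment, and the 5 genes most alike. Members and lists were chosen with earlier results of these data known. Of the 24 other components 23 were matched by symbol.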

Additional observations from a re-analysis of the deposited data

How the results depend on the processing

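The count of members past the threshold stayed at 0 in the Dermo1Cre and Sox9Cre experiments under every alternative run. In the *Vangl1/2* experiment it became 10 with all 18 libraries in 1 fit and 10 with the length trend removed and control replicate 2 left out (chosen after seeing the data), and it lay between 0 and 10 when 1 library was left out. The median log2 fold change of the members there was 0.37 to 0.88 on leaving out 1 library, and 0.034 without control replicates 1 and 3 (chosen after seeing the data), where *Col4a6* was at -0.015, *Nid1* at -0.015, *Nid2* at -0.048 and *Hspg2* at -0.023. The cause was not tested. With the length trend removed, with or without the replicate block, the Dermo1Cre median was -0.074 and *Agrn* -0.039, while in the Sox9Cre experiment *Col4a2* was at 0.017 and *Hspg2* at 0.039. The Sox9Cre median was -0.10 to 0.010 on leaving out 1 library.

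Values near 0 changed sign when 1 library was left out. On the log2 scale these were, in the Dermo1Cre experiment, *Col4a1* (-0.054 to 0.0026), *Col4a3* (-0.016 to 0.24), *Col4a5* (-0.11 to 0.027), *Nid2* (-0.031 to 0.090) and *Hspg2* (-0.033 to 0.034). In the Sox9Cre experiment they were *Col4a2* (-0.036 to 0.019), *Col4a3* (-0.27 to 0.11), *Col4a4* (-0.21 to 0.011), *Col4a6* (-0.095 to 0.041) and *Hspg2* (-0.040 to 0.049). Of the ratios, *Col4a2* to *Col4a1* differed by -0.041 to 0.0021 in the *Vangl1/2* and by -0.033 to 0.021 in the Dermo1Cre experiment. *Nid2* to *Nid1* differed by -0.053 to 0.082 in *Vangl1/2*, *Col4a4* to *Col4a3* by -0.043 to 0.17 in Dermo1Cre and -0.17 to 0.061 in Sox9Cre, and *Agrn* to *Hspg2* by -0.0045 to 0.060 in Dermo1Cre and -0.023 to 0.095 in Sox9Cre.

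The labels give only the number for libraries of the same replicate number, and whether these were paired in another way is not given there. The deviations of same-numbered libraries from their group means correlated with r of 0.01 to 0.30 in *Vangl1/2*, -0.22 to 0.07 in Dermo1Cre and -0.12 to 0.13 in Sox9Cre, and 3, 0 and 2 of the 6 libraries correlated best with their own number. With the replicate block 0 members passed in any experiment (lowest adjusted p = 0.214, 0.615 and 0.879, limma), and *Col4a5* joined *Nid2* under 0.05 before adjustment in the Sox9Cre experiment. *Col4a3*, at 23.1 to 183 normalized counts, has the widest intervals of the members.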
